A study of Mus musculus with 26 samples.

Results

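Open chromatin of mouse epiblast-like cells (EpiLCs) was compared with that of epiblast stem cells (EpiSCs) kept in AFX medium, within the group of libraries labelled Rd2. The comparison rested on regions that ATAC-seq peak lists held on one side and not on the other. Of 16007 regions in the union of the 6 lists, 257 (1.61%) had a peak in all 4 EpiLC lists and in neither AFX list, and are called EpiLC-only here. A further 385 (2.41%) had a peak in both AFX lists and in no EpiLC list, and are called AFX-only. The 2 kinds together made 642 separated regions. No value of a peak other than its rank entered the choice.

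The series profiled pluripotent mouse cells by ATAC-seq in 26 libraries, in which the transposase Tn5 cuts accessible DNA of a fixed number of cells with the Illumina Nextera kit. Of these, 6 libraries were compared here. The EpiLC libraries came from embryonic stem (ES) cells that had been induced for 2 days in AF medium with added KSR, after which the fraction low in GFP was sorted. The AFX libraries came from EpiSCs at passage 16 in AFX. From what is known of the study, AF stands for activin A and FGF2, the X for XAV939, an inhibitor of tankyrase that lowers canonical Wnt signalling, and KSR is a serum replacement. EpiLC samples carry the numbers 1.1, 1.2, 2.1 and 2.2 and AFX samples 1 and 2, and the labels do not say whether these are separate cultures, so spread between them may be technical. The labels do not name the GFP reporter, and they call both groups WT. A further 2 Rd2 libraries, from ES cells at passage 33 in 2iL medium, and 18 libraries of a first set served only to look up the separated regions.

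EpiLCs are a transient population obtained from naive ES cells and are used as a model of the epiblast soon after implantation, when cells can still form germ cells. EpiSCs are self-renewing lines that resemble the later, primed epiblast and depend on activin and FGF. In both states Pou5f1 stays on, while naive factors such as Zfp42 and Klf4 have been turned off, and enhancer use changes more between the states than promoter use does.

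Promoter windows that carried separated regions are shown first, to give the sequence behind the regions closest to gene starts. Each window runs from 250 bp before to 50 bp after the RefSeq start (GRCm38.p6, the same build as mm10), 5′ to 3′ on the gene's strand. Zfp640 (a C2H2 zinc finger gene, chr13:66680754-66681053, minus strand), Sox11 (a SoxC transcription factor, chr12:27342669-27342968, minus strand) and Acvr2b (a type II activin receptor, chr9:119401928-119402227, plus strand) carried EpiLC-only regions. Hdhd5 (a hydrolase-domain protein, chr6:120531250-120531549, minus strand) and Pclaf (a PCNA-binding factor of DNA replication, chr9:65890073-65890372, plus strand) carried AFX-only regions. Capitals mark exact matches, on either strand, to 10 motifs: the box whose letters are CCAAT, the GC box with GGGCGG, the ETS motif with CCGGAAG, the YY1 motif with AAGATGG, the E-box with CACGTG, the CRE with TGACGTCA, the NRF1 motif with GCATGCGC, the octamer with ATGCAAAT, the Kaiso motif with CTCGCGAG and the KLF motif with GGGTGTGG, and no marked matches overlap one another.
Zfp640: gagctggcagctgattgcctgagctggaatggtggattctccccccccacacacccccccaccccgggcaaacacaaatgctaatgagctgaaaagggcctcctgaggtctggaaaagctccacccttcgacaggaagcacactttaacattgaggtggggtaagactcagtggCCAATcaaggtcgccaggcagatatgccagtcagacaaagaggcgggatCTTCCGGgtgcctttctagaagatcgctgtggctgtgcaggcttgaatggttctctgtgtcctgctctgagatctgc
Sox11: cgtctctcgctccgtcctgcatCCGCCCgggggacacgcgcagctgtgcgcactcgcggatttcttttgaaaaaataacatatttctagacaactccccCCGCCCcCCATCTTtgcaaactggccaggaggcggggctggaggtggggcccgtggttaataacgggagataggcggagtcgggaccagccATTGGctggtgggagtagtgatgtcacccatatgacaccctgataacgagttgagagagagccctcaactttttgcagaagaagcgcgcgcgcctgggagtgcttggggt
Acvr2b: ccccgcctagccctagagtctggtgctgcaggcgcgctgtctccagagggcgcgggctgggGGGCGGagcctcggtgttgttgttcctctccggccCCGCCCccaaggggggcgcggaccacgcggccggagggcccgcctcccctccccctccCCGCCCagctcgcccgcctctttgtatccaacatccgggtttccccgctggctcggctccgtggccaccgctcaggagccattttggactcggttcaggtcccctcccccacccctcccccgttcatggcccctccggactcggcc
Hdhd5: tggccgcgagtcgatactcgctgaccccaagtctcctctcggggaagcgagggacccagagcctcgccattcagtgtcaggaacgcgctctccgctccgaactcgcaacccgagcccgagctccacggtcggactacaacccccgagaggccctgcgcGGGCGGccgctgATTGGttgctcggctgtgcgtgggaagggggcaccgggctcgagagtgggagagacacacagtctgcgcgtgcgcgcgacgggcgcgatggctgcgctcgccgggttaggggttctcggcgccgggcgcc
Pclaf: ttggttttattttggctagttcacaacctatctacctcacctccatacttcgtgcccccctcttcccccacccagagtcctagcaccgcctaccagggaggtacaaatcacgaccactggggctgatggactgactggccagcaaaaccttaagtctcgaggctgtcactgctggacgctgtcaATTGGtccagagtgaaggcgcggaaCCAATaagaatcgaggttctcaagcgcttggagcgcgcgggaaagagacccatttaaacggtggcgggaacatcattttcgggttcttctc

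The Zfp640 window holds 1 CCAAT box, 1 ETS match and 6 CpG dinucleotides, and the Acvr2b window holds GC boxes only, with 27 CpG and 73.3% G and C. Both Pclaf matches are CCAAT boxes. Over all windows that met a separated region, a CCAAT box was found in 50 of 117 EpiLC-only windows (42.7%) and in 97 of 167 AFX-only windows (58.1%). The share was 45.2% over the 8093 windows that met any union region, 61.5% over those of regions in all 6 lists and 38.2% over 21262 windows of protein-coding genes. A GC box was found in 75.2% of EpiLC-only and 61.1% of AFX-only windows, against 74.1% for the union, 80.1% for regions in all 6 lists and 46.2% over all coding windows. An octamer was found in 6 EpiLC-only windows (5.13%) and in 1 AFX-only window (0.599%), against 1.57% for the union and 1.66% of all coding windows. These are matches of letters and not binding sites, windows of 1 gene can overlap, and the shares were not tested.

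The peak lists held 10563, 23608, 7469 and 26045 peaks in EpiLC 1.1, 1.2, 2.1 and 2.2, and 11252 and 10719 peaks in AFX 1 and 2. The EpiLC lists thus reached both below and far above the AFX lists. Mean numbers were 16921 ± 9269 (SD, n = 4) and 10986 ± 377 (SD, n = 2), a log2 difference of 0.43 that did not pass an exact two-sided permutation test (p = 0.667, Benjamini-Hochberg adjusted over 4 tests p = 0.667). Because list length differed so much, only the 7469 peaks with the highest −log10 p of each list were used. This is the whole of EpiLC 2.1, and the weakest peak used had a −log10 p of 4.16 there and of up to 6.95 in EpiLC 2.2. Overlapping peaks were joined into union regions, and a list held a region if a peak overlapped it by at least 1 bp. The lists give no read counts, so the depth behind a peak is unknown, and with 4 lists against 2 there are 15 assignments and no p under 0.0667, so that no single region can pass a test.

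**Figure D1:**
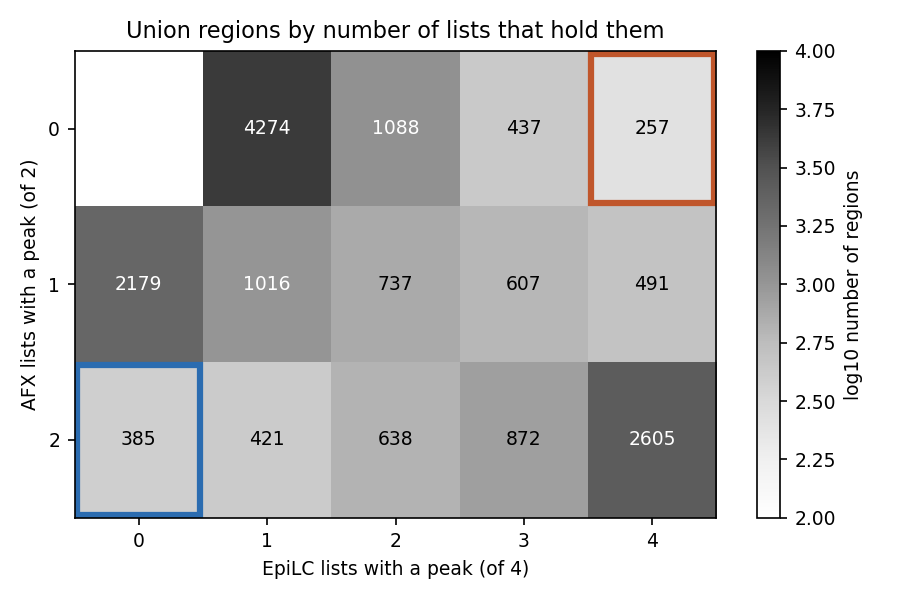
Number of union regions (cell text, log10 grey scale) by how many of the 4 EpiLC lists (x axis) and of the 2 AFX lists (y axis) held a peak there. The 257 EpiLC-only regions are outlined in orange and the 385 AFX-only regions in blue, and 2605 regions lay in all 6 lists.

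Most regions were not sorted by cell type. All 6 lists held 2605 regions (16.3%), and 6453 regions (40.3%) were in 1 list only. The Jaccard index, the bases shared by 2 lists divided by the bases in either, was 0.370 ± 0.0482 over the 6 pairs of EpiLC lists (0.314 to 0.441) and 0.403 for the AFX pair. It was 0.335 ± 0.0187 over the 8 pairs of an EpiLC with an AFX list (0.309 to 0.357). The ranges overlapped, and the mean gap of 0.0396 did not pass the exact one-sided permutation test (p = 0.0667, the smallest possible, adjusted p = 0.267). The 2 counts of separated regions are not on one footing, since an EpiLC-only region had to be in 4 lists and an AFX-only region in 2. With EpiLC 1.1 and 1.2 alone against both AFX lists, 698 regions were EpiLC-only and 624 AFX-only. With EpiLC 2.1 and 2.2 alone the counts were 584 and 765, so the side with more regions changed with the libraries used. It also changed when the lists were used at their deposited lengths, which gave 495 EpiLC-only and 144 AFX-only regions.

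Peaks within the separated regions were of middling strength. The median rank by −log10 p, with 1 the strongest of the list, was 3854, 3734, 3343 and 3674 in the 4 EpiLC lists over the EpiLC-only regions, and 4934 and 4748 in the AFX lists over the AFX-only regions. In the regions of all 6 lists the median rank lay between 1631 and 1952. The weakest peak inside the limit ranked 7465 for an EpiLC-only and 7457 for an AFX-only region, and the best peak of the other side just outside it ranked 7489 and 7486. EpiLC-only regions were longer, with a median of 571 bp against 252 bp for AFX-only regions and 350 bp for the union. An EpiLC-only region joins peaks of 4 lists and an AFX-only region of 2, so these lengths are not on one footing. The single peaks inside them had medians of 288, 421, 227 and 429 bp in the EpiLC lists and 198 and 190 bp in the AFX lists. EpiLC peaks were themselves longer in the shortened lists, with medians of 293, 426, 267 and 394 bp against 260 and 247 bp in AFX. The groups did not overlap, and the difference of 91.5 bp did not pass the exact two-sided permutation test (p = 0.133, adjusted p = 0.267).

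The separated regions lay away from genes more often than regions open in every list. Of the EpiLC-only regions 42.8% lay within 1 kb of either end of a protein-coding gene, 26.5% inside a gene farther from its ends, and 30.7% outside genes. The AFX-only regions were divided in much the same way, with 41.0% at gene ends, 32.2% inside genes and 26.8% outside. Of the regions in all 6 lists 79.5% were at gene ends, and of the whole union 51.7%. No protein-coding gene lay within 50 kb of 11.7% of EpiLC-only, 7.27% of AFX-only and 2.00% of shared regions. These shares describe regions and were not tested, as the regions of a list are not replicates. Per library, the gene-end share of peaks was 61.9 ± 3.54% (SD, n = 4) in EpiLC and 64.6 ± 0.312% (SD, n = 2) in AFX, and the EpiLC mean minus the AFX mean was −2.71 points (p = 0.467 in the exact permutation test, adjusted p = 0.622).

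**Figure D2:**
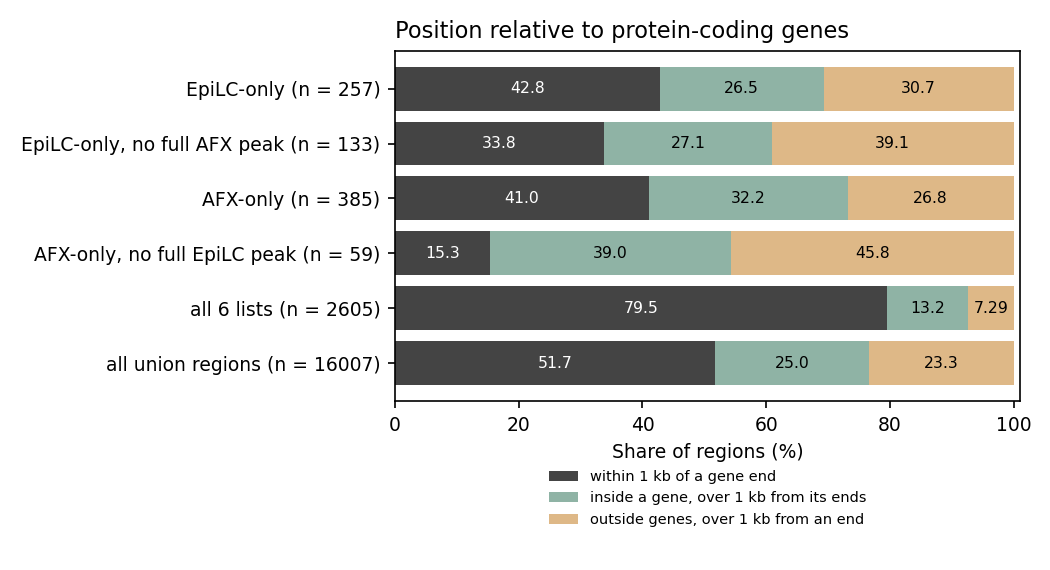
Share of regions (x axis, %) at a gene end (1 kb or less from it), inside a gene farther from its ends, or outside genes, for each set of regions (rows, with their number). Gene ends made up 42.8% of EpiLC-only and 41.0% of AFX-only regions against 79.5% of the regions in all 6 lists, and 15.3% of the AFX-only regions that no full EpiLC list held.

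Many separated regions did have a weaker peak on the other side once the lists were used in full. Among the 257 EpiLC-only regions, 133 (51.8%, 95% Wilson interval 45.7 to 57.8%) had no peak in either full AFX list, 70 had one in 1 list and 54 in both. AFX 1 held 98 of them, at a median rank of 8760, and AFX 2 held 80, at 8735. Among the 385 AFX-only regions, 59 (15.3%, interval 12.1 to 19.3%) had no peak in any full EpiLC list, 78 had one in 1 list, 184 in 2 and 64 in 3. The long lists EpiLC 1.2 and 2.2 held 285 (74.0%) and 279 (72.5%) of them, at median ranks of 13052 and 15205, and EpiLC 1.1 held 74 (19.2%). EpiLC 2.1 could hold none, as its whole list had been used. The full lists went deeper on the EpiLC than on the AFX side, so the 51.8% and the 15.3% cannot be set against each other. The intervals cover counting of regions only.

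**Figure D3:**
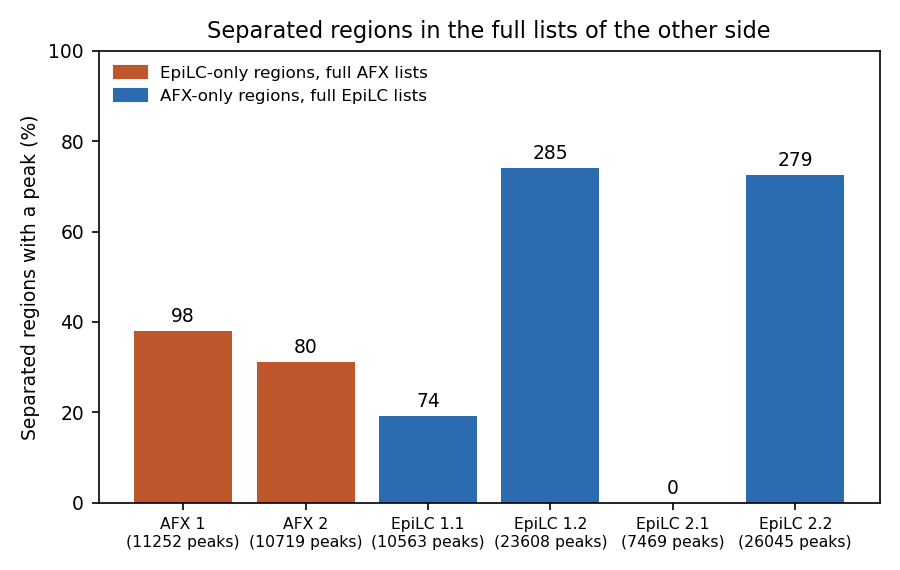
Share of separated regions (y axis, %) with a peak in each full list of the other side (x axis, with its number of peaks); the number over each bar is the count of regions. EpiLC 1.2 and 2.2, the longest lists, held 285 and 279 of the 385 AFX-only regions, and AFX 1 and 2 held 98 and 80 of the 257 EpiLC-only regions.

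The 133 EpiLC-only regions that no full AFX list held were at gene ends in 33.8% of cases and outside genes in 39.1%. For the 59 AFX-only regions with no peak in the full EpiLC lists these shares were 15.3% and 45.8%, and 39.0% lay inside genes. They thus lay at gene ends less often than all AFX-only regions, of which they are a subset, and 20.3% of them had no protein-coding gene within 50 kb.

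Relative to protein-coding genes, 1 of the 10 strongest EpiLC-only regions lay at a gene end and the others lay inside or outside genes. By the mean percentile of their rank, the first was chr6:3182849-3184084 (mm10, the build of all coordinates here), with −log10 p of 14.5, 16.1, 9.96 and 16.1 in EpiLC 1.1, 1.2, 2.1 and 2.2. Its nearest protein-coding gene, Samd9l, lay 188172 bp away. Both full AFX lists held a peak there, at 5.01 and 4.50. All 4 EpiLC values were above both AFX values, an order largely set by the choice of regions by rank on this scale. The region differed in strength, not in the presence of a peak.

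Of the same 10 regions, 3 lay by Zfp640 on chromosome 13, and 1 more region within 50 kb of that gene ranked lower. The region chr13:66680840-66681061, in the promoter window shown above, had −log10 p of 11.7, 13.6, 7.83 and 12.1. The region chr13:66698024-66698757, 17220 bp from the gene, had 15.3, 16.6, 8.96 and 13.6. The third, chr13:66711009-66711372, had 11.4, 12.7, 7.99 and 15.3. Neither full AFX list held a peak in any of these 3 regions, while all 3 first-set ES lists did. Among the 15 first-set lists of formative stem (FS) cells and EpiSCs, none held the promoter region, 2 held the second and 1 the third. Zfp640 had 4 EpiLC-only regions within 50 kb, more than any other gene, and 19 genes had 2 or more.

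The other regions of this rank stood near genes of various kinds. The region chr13:65990983-65991430, near the predicted gene Gm46425, had −log10 p of 11.5, 15.6, 11.0 and 14.4 and no AFX peak. A region inside Zfp978, a further zinc finger gene (chr4:147275255-147275676), had 10.6, 9.70, 8.09 and 13.6 and likewise no AFX peak. At chr5:74126482-74127007, 58070 bp from the deubiquitinase gene Usp46, the values were 9.73, 13.6, 10.3 and 13.9, again with no peak in AFX. The remaining regions had weaker AFX peaks. Inside Cdk19, a kinase gene of the Mediator complex, −log10 p was 9.14 to 15.8 in EpiLC and 4.69 in AFX 2. At 68099 bp from Gli3, a transcription factor of Hedgehog signalling, it was 7.30 to 13.7 in EpiLC and 5.13 in AFX 1. Near Pura, a single-stranded nucleic acid binding protein, both AFX lists held a peak, with 5.26 and 4.74 against 9.98 to 13.3 in EpiLC. In each of these regions the choice by rank on this scale largely set the order. Ranked by fold enrichment, the Gli3 and Pura regions were no longer separated, while the Cdk19 region still was. At equal length, all 3 first-set lists of each EpiSC line in AFX held the Gli3 and Pura regions. Line AFX 2 held the Cdk19 region in all 3 lists and line AFX 1 in none. In full, no list of either line held the Gm46425 or Usp46 region, and 1 held the Zfp978 region.

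The strongest AFX-only region was on the Y chromosome. The region chrY:259082-259371 had −log10 p of 11.3 and 9.23 in AFX 1 and 2 and no peak in any full EpiLC list. In the first set it was in all 3 full lists of ES, FS1, FS2, EpiSCs in AF and EpiSC line AFX 1. In line AFX 2 it was in 0 lists. Peaks on the Y chromosome were few in all 6 lists, with 0, 2, 2 and 4 in the full EpiLC lists and 5 and 6 in the AFX lists, against 27 to 84 in the lists of the first set. Only 6 union regions lay there, of which 2 were AFX-only.

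A region inside Tet1, which encodes a dioxygenase that oxidises 5-methylcytosine, came second. At chr10:62865283-62865558 its −log10 p was 9.15 and 9.01 in AFX and 5.12 and 6.48 in EpiLC 1.2 and 2.2, and EpiLC 1.1 and 2.1 had no peak. In the first set, all 3 full lists of FS1, of FS2 and of both EpiSC lines in AFX held the region. So did 2 lists of EpiSCs in AF, and none of the 3 ES lists did. The promoter of Hdhd5, shown above, had 8.57 and 9.06 in AFX and 4.70, 6.14 and 5.96 in EpiLC 1.1, 1.2 and 2.2. That of Pclaf had 8.88 and 7.96 in AFX and 4.98, 5.32 and 5.93 in the same EpiLC lists. In each of these regions both AFX values were above every EpiLC value, although EpiLC peaks were present. The regions were chosen by rank on this same −log10 p, so the choice largely set this order.

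Further AFX-only regions of this rank lay inside Col2a1 (type II collagen), Pde4d (a cyclic AMP phosphodiesterase) and Crb2 (a Crumbs polarity protein of epithelia) and at the start of Dapk3 (a death-associated protein kinase), each with a weaker peak in 2 or 3 full EpiLC lists. At Crb2, −log10 p was 7.86 and 8.72 in AFX against 5.98 and 6.70 in EpiLC 1.2 and 2.2. A region inside Pip5kl1 (9.28 and 7.51 in AFX) had no peak in any full EpiLC list. Of the AFX-only regions with no EpiLC peak at all and a gene within 50 kb, the next by rank lay 19209 bp from Mki67, the gene of the proliferation antigen Ki-67. Its values were 10.0 and 6.78 in AFX, and it was in all 15 first-set FS and EpiSC full lists and in none of the 3 ES lists. The next were 6424 bp from Atg7, an autophagy gene (8.31 and 7.03), and inside Spock1, a proteoglycan gene (6.84 and 8.96). Both stood in all 15 FS and EpiSC lists. By number, Ccdc85c, Cyp46a1, Hhipl1, Arhgap23 and Socs7 each had 3 AFX-only regions within 50 kb, Col2a1 had 2, and 48 genes had 2 or more.

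Genes of pluripotency, signalling and lineage were then looked up from 14 lists with 181 genes, of which 180 were in the gene table. An EpiLC-only region lay within 50 kb of 8 of the 180 (4.44%), against 570 of all 21896 protein-coding genes (2.60%). An AFX-only region lay within 50 kb of 12 (6.67%), against 1083 of all (4.95%). The shares were a little above the background on both sides, and neither was tested. None of the 17 formative genes, among them Fgf5, Otx2, Pou3f1 and Dnmt3b, had a separated region of either kind, and the same held for the trophoblast, fibroblast and 2-cell-like lists.

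**Figure D4:**
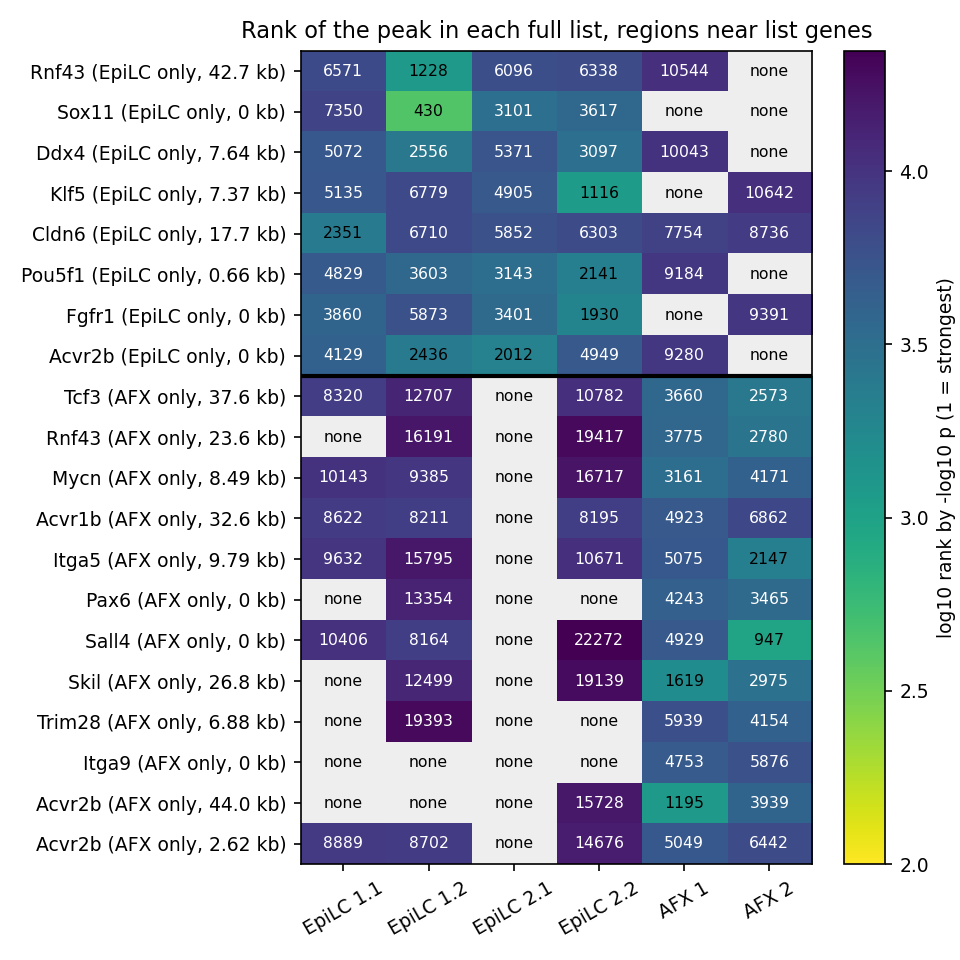
Rank by −log10 p of the strongest peak in each of the 6 full lists (columns; 1 is the strongest, colour on a log10 scale, none where no peak stood) for the separated regions within 50 kb of a list gene (rows, with the distance to the gene in kb). EpiLC-only regions are above the black line and AFX-only regions below it, and of the rows drawn, only those of Sox11 and Itga9 show no peak at all on the other side.

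Among the core pluripotency factors, 1 of 9 genes had an EpiLC-only region and 4 had an AFX-only one within 50 kb. Over all protein-coding genes the shares were 2.60% and 4.95%. The list is small, and its counts were not tested. At Pou5f1, the POU factor required for pluripotency, which is known to be driven by separate distal and proximal enhancers upstream of its start, the EpiLC-only region chr17:35504597-35505371 ended 660 bp before the gene. Its −log10 p was 5.93, 8.54, 5.93 and 10.0 in the EpiLC lists and 4.81 in AFX 1, with no peak in AFX 2. All EpiLC values of −log10 p were above the AFX value, an order that the choice by rank on this scale largely set. The deposited fold enrichment did not separate the groups, with 3.63, 4.21, 3.76 and 4.74 in EpiLC and 3.63 in AFX 1, and the region was no longer separated when peaks were ranked by it. In the first set it was in all 3 full lists of FS1, of EpiSCs in AF and of both EpiSC lines in AFX, in 1 list of FS2, and in none of the 3 ES lists. The number of peaks within 50 kb of Pou5f1 was 3, 2, 2 and 2 in the EpiLC lists and 1 and 1 in the AFX lists at equal length, but 3, 8, 2 and 5 against 3 and 1 in full, where the groups overlapped.

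The AFX-only regions of this list lay near Sall4, a zinc finger factor of pluripotent cells, Mycn, a Myc family factor, Trim28, a corepressor, and Tcf3, the E2A basic helix-loop-helix factor and not the Wnt effector Tcf7l1. At one end of Sall4 −log10 p was 6.10 and 8.85 in AFX and 4.16, 6.47 and 4.48 in EpiLC 1.1, 1.2 and 2.2, so that the groups overlapped on this scale and differed in rank. At 8486 bp from Mycn it was 6.93 and 6.18 in AFX and 4.31, 6.15 and 5.20 in those lists. The Trim28 region, 6885 bp from the gene at the start of Ube2m, had 5.73 and 6.19 in AFX and 4.46 in EpiLC 1.2. The Tcf3 region lay 37642 bp from the gene and nearer to Plk5, and 3 full EpiLC lists held a peak there. Since the long EpiLC lists reach the same rank at a higher −log10 p than the AFX lists, a rank and a −log10 p can order libraries differently here.

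The activin and Nodal list holds ligands, receptors, inhibitors and targets of the pathway that AF media feed. Of its 20 genes, 1 had an EpiLC-only and 3 an AFX-only region within 50 kb. Over all protein-coding genes the shares were 2.60% and 4.95%, and these counts were not tested. The promoter of Acvr2b had −log10 p of 6.21, 9.62, 6.60 and 7.90 in EpiLC and 4.78 in AFX 1, with no peak in AFX 2. Within 50 kb of the same gene, the AFX lists had 2 separated regions of their own, at the neighbouring genes Xylb (8.73 and 6.29 in AFX, 5.34 in EpiLC 2.2) and Exog (6.05 and 5.37 in AFX). The Exog region had peaks in 3 full EpiLC lists with −log10 p of 4.75, 6.33 and 5.49, which overlap the AFX values. The AFX-only region counted for the type I receptor gene Acvr1b lay 32581 bp from it and nearer to Nr4a1. Its −log10 p was 6.10 and 5.25 in AFX and 4.79, 6.46 and 6.74 in EpiLC 1.1, 1.2 and 2.2, so the AFX side stood out by rank and not by this value. The other was 26846 bp from Skil, which encodes the SMAD inhibitor SnoN. The Skil region lay at the start of Cldn11, which was nearer.

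In the Wnt list, Rnf43, a ubiquitin ligase that removes Frizzled receptors, had a separated region of each kind, at 42659 bp (EpiLC-only) and 23574 bp (AFX-only), and the other 25 genes had none. Peaks within 50 kb of the 26 Wnt genes numbered 22, 23, 21 and 23 in the EpiLC lists and 31 and 26 in the AFX lists at equal length. It was the only one of the 14 lists whose counts did not overlap between the groups, and it did not pass the exact two-sided permutation test over libraries (p = 0.0667, the smallest possible, adjusted over the 14 lists p = 0.800). By gene, Notum, an extracellular Wnt deacylase, had 2, 2, 1 and 2 peaks in EpiLC and 5 and 2 in AFX. Wnt8a, a ligand, had 1, 0, 1 and 0 against 2 and 3. Other genes of the list did not go with the total. Fzd7 had 1, 2, 1 and 2 peaks against 1 and 1, and Nkd1 2, 2, 2 and 2 against 1 and 2. In full, Notum had 3, 5, 1 and 6 against 7 and 2, and Wnt8a 2, 2, 1 and 2 against 3 and 3.

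The remaining lists had 0 to 2 genes a side. Near the naive factor Klf5 the EpiLC-only region had −log10 p of 5.81, 6.92, 5.25 and 11.8, and 4.04 in AFX 2. No ES list of either set held it. Full first-set lists held it in 3 libraries of FS1, 1 of FS2, 2 of EpiSCs in AF, 0 of line AFX 1 and 3 of line AFX 2. At Sox11, whose promoter is shown above, −log10 p was 5.13, 14.5, 5.95 and 8.66 with no peak in AFX 1 or 2. EpiLC 1.2 stood far above the other 3, and the EpiLC 1.1 peak ranked 7350 of the 7469 used. All 3 full first-set lists of FS1, of EpiSCs in AF and of both EpiSC lines in AFX held the Sox11 region. So did 1 list of FS2, and no ES list did. Inside Fgfr1, an FGF receptor, −log10 p was 6.32, 7.27, 5.81 and 10.3, and 4.53 in AFX 2. The other EpiLC-only regions were near Cldn6, a tight junction protein, and Ddx4, a helicase of germ cells. On the AFX side, a region inside the integrin gene Itga9 (6.18 and 5.56) had no EpiLC peak. A region inside Pax6, a neural factor, had 6.38 and 6.52 in AFX and 5.34 in EpiLC 1.2, and one near Itga5 had peaks in 3 full EpiLC lists.

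Peaks near marker genes did not sort the libraries by their labels, and RNA was not measured in these libraries. Within 50 kb of the 16 naive genes the lists held 12, 10, 11 and 6 peaks in EpiLC and 8 and 7 in AFX. Near the 17 formative genes the numbers were 24, 22, 16 and 12 against 19 and 25, and near the 20 primed and lineage genes 15, 15, 14 and 13 against 20 and 15. In all of these the groups overlapped or touched. Near the trophoblast genes there were 6, 7, 9 and 6 against 9 and 7 peaks, near the fibroblast genes 3, 5, 3 and 2 against 3 and 4, and near the 2-cell-like genes none in any list.

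The separated regions were then looked up in the 18 first-set lists, which had no part in choosing them. These comprise 3 libraries each of ES cells in 2iL at passage 16, the FS lines FS1 at passage 21 and FS2 at passage 29 in A3XR, EpiSCs in AF at passage 22, and EpiSCs in AFX of line 1 at passage 14 and line 2 at passage 16. FS cells are lines held in the formative state between naive and primed. The authors' lists of this set contain no peak under 150 bp, against 110 bp in the Rd2 lists. The settings behind this difference between the sets are not given in the sources used here.

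At equal length, the ES lists held 43.2 ± 2.70% of the EpiLC-only regions and 13.6 ± 1.59% of the AFX-only regions (SD, n = 3), against 29.2% of all union regions. In each of the 3 ES libraries the EpiLC-only share was the higher. In full, they held 48.8 ± 3.31% and 17.3 ± 3.43%. Of the 133 EpiLC-only regions that no full AFX list held, the ES lists at equal length held 39.6 ± 1.89%, and of the 59 AFX-only regions that no full EpiLC list held, 5.08% in each library. All 3 full ES lists held 80 of the 257 EpiLC-only regions (31.1%) and 18 of the 385 AFX-only regions (4.68%), and no ES list held 85 EpiLC-only and 250 AFX-only (64.9%) regions. The share of all union regions held by all 3 or by none was not computed. The 2 ES libraries of the Rd2 set, with lists of only 471 and 2576 peaks, held 3.50% and 15.2% of the EpiLC-only regions and 0 and 3.38% of the AFX-only regions, while they held 2.71% and 14.1% of all union regions. The EpiLC-only shares were close to those of the union and the AFX-only shares below them.

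At equal length, lines of one cell type disagreed with each other. Of the EpiLC-only and the AFX-only regions, EpiSC line AFX 1 held 30.2 ± 1.84% and 44.3 ± 2.24%, and line AFX 2 held 46.8 ± 1.47% and 30.6 ± 1.50% (SD, n = 3 each). FS1 held 47.3 ± 0.899% and 34.8 ± 1.82%, and FS2 31.5 ± 1.56% and 40.6 ± 3.17%. EpiSCs in AF held 45.5 ± 2.72% and 27.1 ± 2.75%. Thus line AFX 1 and FS2 held more of the AFX-only regions in each of their libraries, and line AFX 2, FS1 and the EpiSCs in AF more of the EpiLC-only regions in each of theirs. With the first-set lists in full this opposition was gone: every library of both AFX lines and both FS lines held the larger share of the AFX-only regions. The share of all union regions held was near 39% in all of these but FS2: it was 39.1% and 39.9% for the AFX lines, 38.9% for FS1, 38.8% for AF and 34.5% for FS2. At equal length, median peak lengths were 349 and 382 bp in AFX lines 1 and 2, 367 and 259 bp in FS1 and FS2, 348 bp in AF and 273 bp in ES. EpiLC-only regions were longer than AFX-only regions, and the part of length in these shares was not tested beyond the use of the central 250 bp of each peak, given with the alternatives.

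**Figure D5:**
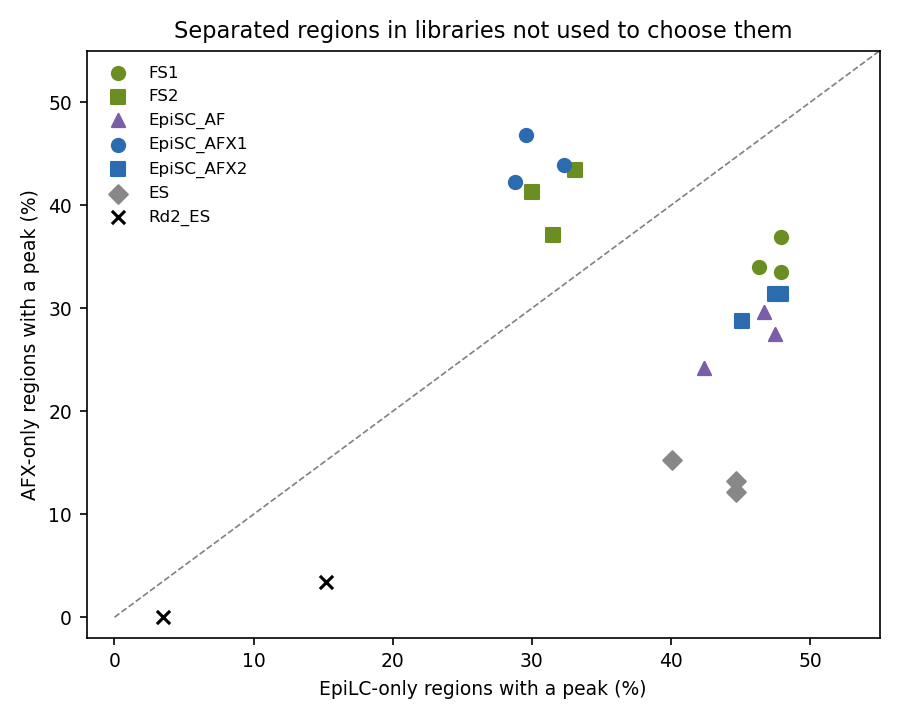
Share of the 257 EpiLC-only regions (x axis, %) and of the 385 AFX-only regions (y axis, %) with a peak in each library that did not serve to choose them, at 7469 peaks a list (Rd2 ES lists whole, with 471 and 2576 peaks); each point is 1 library and the dashed line marks equal shares. EpiSC line AFX 1 and FS2 lie above the line and all other libraries below it, the first-set ES libraries farthest.

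The balance, the AFX-only share minus the EpiLC-only share in percentage points, put a number on this. It averaged −29.6 ± 4.23 in ES (SD, n = 3), −18.4 ± 1.44 in EpiSCs in AF (n = 3), −1.08 ± 16.7 in EpiSCs in AFX (n = 6) and −1.72 ± 12.0 in FS cells (n = 6). By line, it was 14.1 ± 2.83 and −16.3 ± 0.198 in AFX lines 1 and 2, and −12.5 ± 1.70 and 9.09 ± 3.04 in FS1 and FS2. With the first-set lists in full, the balance was 21.9, 21.4 and 19.7 in the libraries of AFX line 1. It averaged 9.07 ± 2.01 in AFX line 2, 9.07 ± 3.27 and 8.94 ± 0.913 in FS1 and FS2, 0.402 ± 5.09 in AF and −31.5 ± 0.492 in ES (SD, n = 3 each). At equal length, in exact two-sided permutation tests over libraries, adjusted over 5 comparisons, EpiSCs in AFX exceeded ES by 28.5 points (adjusted p = 0.0397) and FS cells exceeded ES by 27.9 (adjusted p = 0.0397), with all 6 libraries above all 3 ES libraries in both. EpiSCs in AF differed from FS cells by −16.7 points in the same exact test (adjusted p = 0.0397), with all 3 libraries below all 6. EpiSCs in AF and in AFX differed by −17.4 points (adjusted p = 0.0744) and EpiSCs in AFX and FS cells by 0.648 (adjusted p = 0.892), and neither passed the exact test. Libraries of 1 line are not separate lines, so these p-values are smaller than a test over lines would give. FS cells and EpiSCs in AFX had 2 lines each, and ES cells and EpiSCs in AF a single source label each. With so few lines, an exact test over lines could pass in none of the 5 comparisons. With regions chosen without EpiLC 1.1, 2.1 or 2.2, all 3 calls kept an adjusted p of 0.0397 in the same exact test. Without EpiLC 1.2 the differences were 29.6, 30.7 and −15.5, with an adjusted p of 0.0595 each in the exact test. Without AFX 1 or AFX 2, none of the 3 calls passed the same exact test. EpiSCs in AFX exceeded ES by 6.87 points without AFX 1 (adjusted p = 0.513 in the exact test) and by 7.30 without AFX 2 (adjusted p = 0.487). FS cells exceeded ES by 11.5 and 12.7 points (adjusted p = 0.238 and 0.268 in the exact test). EpiSCs in AF differed from FS cells by −14.6 and −14.8 points (adjusted p = 0.119 each in the exact test).

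In full, the share held of each kind is read beside the share of all union regions. The latter was 73.7% and 80.4% in EpiSC lines AFX 1 and 2, 77.8% and 52.1% in FS1 and FS2, and 33.8% in ES. The 6 lists of EpiSCs in AFX held 90.6 ± 4.72% of the AFX-only and 75.6 ± 10.0% of the EpiLC-only regions, and the 6 FS lists 75.5 ± 17.2% and 66.5 ± 17.2%. The FS lines differed, with 90.9% and 81.8% in FS1 and 60.2% and 51.2% in FS2. The FS2 lists were the shorter, with 11796 to 14147 peaks against 23883 to 31263 in FS1. By line, the EpiLC-only share was 67.6% in AFX line 1, below its union share, and 83.7% in AFX line 2, above it. The AFX-only share was above the union share in both AFX lines, with 88.6% and 92.7%, and also in FS1 and FS2. EpiSCs in AF held 76.3% of the AFX-only and 75.9% of the EpiLC-only regions, against 70.3% of the union. Of the 59 AFX-only regions with no EpiLC peak, EpiSCs in AFX held 82.2 ± 5.94%, FS cells 65.0 ± 18.2% and ES cells 6.78 ± 1.69%. By line, FS1 held 80.8% of them, near the 81.4% and 83.1% of AFX lines 1 and 2, and FS2 held 49.2%. All 15 FS and EpiSC lists, and no ES list, held 52 AFX-only regions (13.5%) and 4 EpiLC-only regions (1.56%). The reverse pattern, all 3 ES lists and none of the 15, was shown by 6 EpiLC-only regions and by no AFX-only region, and the Zfp640 promoter was one of them. None of the 18 lists held 2 of the EpiLC-only regions, whose nearest genes were Gm52429 and Prim2, while every AFX-only region was in at least 1. These patterns were picked after their values had been seen. Their shares over all union regions were not computed, so these counts have no background beside them.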

How the data were processed

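The files were broadPeak lists, 1 per library. Per the submitters' processing notes the tools were Trim Galore, Bowtie, Picard and MACS2 and the build mm10; versions and settings are not given in the sources used here. Each peak has a fold enrichment, a −log10 p, a −log10 q and a score, all as the authors deposited them; the score, 10 times the −log10 q cut to a whole number in almost every peak, served no purpose here. Replicates were called separately.

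The design named the shortest list of the Rd2 set as the common length; the Rd2 ES lists are shorter still, so the shortest of the 6 lists compared (7469 peaks) was used. Ranks are by the deposited −log10 p. Peaks were joined into union regions, and genes were the 21896 protein-coding genes of RefSeq on GRCm38.p6. Exact permutation tests ran over libraries, with Benjamini-Hochberg adjustment and a threshold of 0.05. The code was tested on simulated lists. Python 3.11.15, numpy 2.4.6, pandas 2.3.3, scipy 1.17.1 and matplotlib 3.10.9 were used.

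Named regions were, on each side, the 10 highest by mean percentile of rank, up to 15 near list genes, and the 5 highest with no peak in the full lists of the other side and a gene within 50 kb, plus the 6 genes with the most regions. Counts of peaks near whole lists were added to the planned comparisons. Regions, gene lists and tests were chosen with earlier results of these data known. Between libraries of a group at most 0.0284% of peaks had identical coordinates. Alternatives were other list lengths, ranking by fold enrichment, a −log10 q limit, other overlaps and distances, and leaving out libraries or lines. Some items are not reported here.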

Additional observations from a re-analysis of the deposited data

Results flagged for a closer look

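At equal list length, lines of the same cell type had opposite signs in the first set. The balance, the share of AFX-only regions held minus that of EpiLC-only regions, was −12.5 points in FS1 and 9.09 points in FS2, each sign shown by all 3 libraries of its line, and the difference between the lines was not tested. In EpiSCs in AFX it was 14.1 points in line 1 and −16.3 points in line 2, again with all 3 libraries of each line on one side, and this difference was not tested either. With the first-set lists in full the signs were the same, with 9.07 and 8.94 points in FS1 and FS2, 19.7 to 21.9 points in the libraries of AFX line 1 and 9.07 points in AFX line 2.

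The 2 Rd2 ES lists, which entered no test, held some separated regions. EpiLC-only regions with a peak made up 3.50% in the list of 471 peaks and 15.2% in that of 2576 peaks, against a limit of 1.17% for a count of 0. AFX-only regions made up 3.38% in the longer list, against a limit of 0.779%. Any list holds some regions of the union, and these lists held 2.71% and 14.1% of all of it, so the EpiLC-only shares were near that background and the AFX-only share was below it. These limits cover counting error only. In 11 groups of 4 or more values checked for 1 value far from the others, 0 were found.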

How the results depend on the processing

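The counts of separated regions depended on how the lists were cut. Against 257 EpiLC-only and 385 AFX-only regions, the lists at their deposited length gave 495 and 144, a −log10 q of at least 5 gave 47 and 12, EpiLC 1.1 and 1.2 alone gave 698 and 624, EpiLC 2.1 and 2.2 alone 584 and 765, and leaving out the 2 longest EpiLC lists 687 and 753. That last choice, the use of the central 250 bp of each peak and the choice of regions with no peak in the full lists of the other side were added after the data had been seen. Leaving out 1 EpiLC or AFX library in turn gave 343 to 527 EpiLC-only and 473 to 1481 AFX-only regions, the highest without AFX 1 or AFX 2, when fewer lists had to hold an AFX-only region or lack an EpiLC-only one. Ranking by fold enrichment (216 and 432), 5000 peaks a list (174 and 267), 50% overlap (257 and 385) and the central 250 bp (252 and 407) stayed within 1.5 times.

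The share of EpiLC-only regions with no full AFX peak, 51.8%, was 62.0% by fold enrichment, 28.2% with 5000 peaks a list and 44.2 to 55.5% over the libraries left out. The share of AFX-only regions with no full EpiLC peak, 15.3%, was 5.62% with 5000 peaks and 12.5 to 27.0% over the libraries left out. Of 44 named regions, 44 stayed separated with the central 250 bp, 36 by fold enrichment, 32 with 5000 peaks a list, 15 at deposited length and 7 at a −log10 q of at least 5, and 0 changed sides. Within 20 kb, 7 list genes had an AFX-only region against 12 within 50 kb.

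The balance of EpiSCs in AFX over FS cells, 0.648, reversed to −10.2 without line FS1 and −14.5 without line AFX 1, and ran from −5.36 to 1.33 over the Rd2 libraries left out. That of EpiSCs in AFX over ES, 28.5, no longer passed without line AFX 1 (13.3) or line AFX 2 (43.7), where 3 libraries against 3 cannot go below p = 0.100 in an exact permutation test, and ran from 6.87 to 31.3 over the Rd2 libraries left out. That of FS cells over ES, 27.9, was 38.7 without FS1 and 17.1 without FS2, with the same limit, and ran from 11.5 to 30.7. That of EpiSCs in AF over FS cells, −16.7, was −27.5 without FS1 and −5.89 without FS2, with the same limit. It was −7.25 over the regions with no peak in the full lists of the other side (exact permutation adjusted p = 0.405). Over the Rd2 libraries left out it ran from −17.3 to −13.2. That of EpiSCs in AF over EpiSCs in AFX, −17.4, passed the exact permutation test with first-set lists as deposited (−14.6, adjusted p = 0.0298) and by fold enrichment (−16.2, adjusted p = 0.0446). With the central 250 bp, the 3 differences that passed were 26.5, 25.9 and −15.1, each with an exact permutation adjusted p of 0.0397. The cause of these changes was not tested, except that fewer libraries raise the smallest p. Peak number, gene-end share, peak length and the similarity gap kept their direction and passed no test under any alternative run.

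No paired analysis was possible because the EpiLC numbers have 2 parts that the labels do not tie to the AFX numbers, and the counts come from overlaps of lists. Without read counts, a missing peak shows only that the caller listed none.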

Other observations

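The separated regions were not spread over the chromosomes in the same proportions on both sides. On chromosome 13, 21 of 683 union regions (3.07%) were EpiLC-only and 6 (0.878%) AFX-only. On chromosome 15, 8 of 610 (1.31%) were EpiLC-only and 28 (4.59%) AFX-only. A gene whose symbol begins with Zfp lay within 50 kb of 6.61% of EpiLC-only, 3.64% of AFX-only and 4.20% of all union regions, and of 9.77% of the EpiLC-only regions with no full AFX peak. These chromosomes and the Zfp prefix were picked after their values had been seen, and nothing here was tested.

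No germ cell list gene other than Ddx4 had a separated region within 50 kb, and peaks near that list of 8 genes numbered 10, 8, 6 and 7 in EpiLC and 6 and 4 in AFX, so the groups touched.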
